A study of Rattus norvegicus with 18 samples.

Results

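The genes described here, in macrophages of the rat knee synovium, the tissue that lines the joint, are grouped as C-type lectin receptors of myeloid cells. The group was chosen by name and comprised 9 of the 30643 genes listed at each time point: Clec4d, Clec4e, Clec7a, Clec12a, Clec4a, Clec4a1, Clec4a2, Clec4a3 and Clec2dl1. All 9 were present at both time points and all 9 passed the filter on low values. The genes were picked with their OA and sham levels in view, so their OA against sham differences are given as a description. No p-value is given for them, and counts of members called in that contrast are set beside the share over all genes with nothing read from them. Wild type male Sprague Dawley rats, 12 weeks old at surgery, had either OA surgery, which cut the anterior cruciate and medial meniscotibial ligaments of a knee, or sham surgery, which opened the joint and left the ligaments intact. Synovial cells were taken 4 or 12 weeks later, sorted with magnetic beads for CD11b/c, and sequenced as total RNA. There were 5 OA and 5 sham libraries at 4-weeks, each a pool of 4 rats, and 4 OA and 4 sham libraries at 12-weeks, each a pool of 3 rats. The model is a surgical injury of young males, and no library came from a joint without surgery.

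C-type lectin receptors carry a domain related to the sugar-binding domain of lectins and let myeloid cells sense microbes and damaged cells. Activating members signal through the kinase Syk, either by a tyrosine motif of their own, as Clec7a (Dectin-1) does, or by the paired adaptor Fcer1g, as Clec4e (Mincle) and Clec4d do. Syk then acts through Card9 and NF-kB on cytokine genes. Inhibitory members such as Clec4a (DCIR) and Clec12a (MICL) carry a tyrosine motif that recruits phosphatases such as Ptpn6 (SHP-1). In synovium and other tissues the Clec4 genes, Clec7a and Clec12a are best known from macrophages, monocytes, neutrophils and dendritic cells. Clec2dl1 is in the group by name only. Its deviations from the group mean correlated at 0.71 with fibroblast markers and at -0.30 with macrophage markers over the 18 libraries. Its cell of origin was not tested here.

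In the RefSeq annotation of GRCr8, a later assembly than the one the reads were aligned to, all 9 genes lie on chromosome 4. Clec4a1, Clec4a3, Clec4a2 and Clec4a follow each other with no other protein-coding gene between them. A further gene, Clec4b2, separates Clec4a from the adjacent pair Clec4d and Clec4e. Clec2dl1 lies 100 protein-coding genes further on, Clec12a 9 beyond it, and Clec7a 5 beyond Clec12a. The Clec4a relatives are similar in sequence, and how the counting treated a read that matched several of them is not given in the sources used here, so levels of single members of this group are uncertain.

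RefSeq promoter windows of 300 bases, from 250 before to 50 after the start of the gene in GRCr8, were matched for all 9 genes. The 6 windows are printed 5′ to 3′ on the strand of the gene, with capitals marking GAGGAA, the core recognised by the myeloid factor PU.1, or its reverse complement TTCCTC. Clec4d, Clec4e, Clec7a and Clec2dl1 are shown because OA and sham libraries did not overlap at 12-weeks, and Clec4a with Clec4a2 because their windows were the most alike of all pairs.
Clec4d, strand +, chr4:158275093-158275392: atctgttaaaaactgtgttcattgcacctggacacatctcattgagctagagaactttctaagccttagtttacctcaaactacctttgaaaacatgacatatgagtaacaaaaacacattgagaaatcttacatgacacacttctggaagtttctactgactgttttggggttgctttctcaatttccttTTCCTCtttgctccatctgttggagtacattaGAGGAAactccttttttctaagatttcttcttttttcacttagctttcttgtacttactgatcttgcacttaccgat
Clec4e, strand -, chr4:158298418-158298717: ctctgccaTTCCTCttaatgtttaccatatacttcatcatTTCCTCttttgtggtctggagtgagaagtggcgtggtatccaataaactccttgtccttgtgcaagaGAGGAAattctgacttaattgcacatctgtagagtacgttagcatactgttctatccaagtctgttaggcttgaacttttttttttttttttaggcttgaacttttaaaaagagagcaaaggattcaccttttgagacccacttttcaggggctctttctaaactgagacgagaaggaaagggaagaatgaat
Clec7a, strand -, chr4:164599778-164600077: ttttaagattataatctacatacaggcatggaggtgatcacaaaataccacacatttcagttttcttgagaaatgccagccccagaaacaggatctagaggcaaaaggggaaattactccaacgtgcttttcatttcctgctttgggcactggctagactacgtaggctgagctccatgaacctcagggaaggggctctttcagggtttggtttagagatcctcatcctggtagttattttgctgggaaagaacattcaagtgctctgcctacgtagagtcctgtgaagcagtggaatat
Clec2dl1, strand +, chr4:163949438-163949737: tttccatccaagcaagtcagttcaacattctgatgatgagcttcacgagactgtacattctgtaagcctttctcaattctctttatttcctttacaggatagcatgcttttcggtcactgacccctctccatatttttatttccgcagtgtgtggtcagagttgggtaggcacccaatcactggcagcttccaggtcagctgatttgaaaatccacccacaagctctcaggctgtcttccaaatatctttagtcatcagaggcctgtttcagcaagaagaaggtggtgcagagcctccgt
Clec4a, strand +, chr4:158100365-158100664: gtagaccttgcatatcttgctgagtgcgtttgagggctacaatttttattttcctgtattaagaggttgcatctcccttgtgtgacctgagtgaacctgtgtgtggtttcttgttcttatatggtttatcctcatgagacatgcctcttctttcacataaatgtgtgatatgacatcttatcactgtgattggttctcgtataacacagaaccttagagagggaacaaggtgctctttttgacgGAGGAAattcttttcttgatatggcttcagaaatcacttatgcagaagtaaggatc
Clec4a2, strand +, chr4:157934346-157934645: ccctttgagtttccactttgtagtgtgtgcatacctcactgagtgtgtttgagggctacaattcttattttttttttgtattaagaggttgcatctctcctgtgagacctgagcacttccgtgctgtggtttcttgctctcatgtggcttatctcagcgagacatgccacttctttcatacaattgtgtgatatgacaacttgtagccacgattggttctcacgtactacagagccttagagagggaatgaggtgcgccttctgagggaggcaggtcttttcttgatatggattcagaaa

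The GAGGAA core, on either strand, was found in 6 of the 9 windows and in 27.6% of 33469 windows of the same length. Clec4d had 2 matches, Clec4e 3 and Clec4a 1, whereas the windows of Clec7a, Clec2dl1 and Clec4a2 held none. Among the genes not printed, Clec4a1 had 3 matches, Clec12a 2 and Clec4a3 1. TTNCNNAA, spaced letters of a C/EBP site, occurred in 8 of 9 windows against 41.3% of all, with Clec4a1 the exception. TGANTCA, an AP-1 site, was found in the Clec12a window only, against 7.33% of all windows. A motif of NF-kB was found in 0 of 9 against 47.3% of all. The fixed letters of this NF-kB motif were all G or C, whereas those of the C/EBP site were mostly A or T. The windows of all genes were not matched to the 9 in base composition, and its part in these shares was not tested. Nothing is therefore read from the shares of any motif. Each motif was searched on both strands, and overlaps between motifs were not removed. A match describes letters in the window and no binding was measured. In pairwise alignments, the windows of Clec4a and Clec4a2 were 69.3% identical, against a median of 50.6% over 36 pairs and 54.5% for the next most similar pair, Clec4a2 with Clec4a3.

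Libraries held between 4662344 and 18080503 recovered reads, the fewest in sham replicate 3 of 4-weeks. This library also stood apart among the members: it had the lowest value of its group for 8 of the 9 genes, and the 4-week log2 fold changes of the 9 genes are given with and without it. All 11 macrophage markers searched, among them Cd68, Csf1r and C1qa, passed the filter on low values at both weeks. Their summed levels ran from 111098 to 176631 normalized reads. Markers of other cells were present too. Here none at 0 means that no marker found was 0 in all libraries of a week. The fibroblast markers (9 of 10 found, none at 0) summed to 72352 to 112331 normalized reads in OA and 47740 to 112735 in sham libraries at 4-weeks, and to 86762 to 111755 in OA and 58588 to 89946 in sham libraries at 12-weeks. At 12-weeks 8 of the 9 fibroblast markers had OA against sham log2 fold changes above 0, with a median of 0.57. The skeletal muscle markers (7 of 10 found, none at 0) did not overlap at 12-weeks, with sums of 1095 to 1820 normalized reads in OA and 771 to 946 in sham. All 7 had log2 fold changes above 0, with a median of 0.55. At 4-weeks they overlapped, at 338 to 601 in OA and 312 to 771 in sham. Markers of resident synovial macrophages (9 of 10 found, none at 0) summed at 12-weeks to 85484 to 100918 in OA and 68203 to 99346 in sham, with 7 of the 8 tested above 0 and a median of 0.34. At 4-weeks their sums were 57130 to 70754 in OA and 39336 to 59908 in sham, with 8 of 8 above 0 and a median of 0.37. Neutrophil markers, 14 of 14 found, summed at 12-weeks to 1454 to 4568 normalized reads in OA and 1749.8 to 5998 in sham. At 4-weeks their sum ran from 1513 to 16126 in OA, with a median of 1883, and from 2200 to 6181 in sham. Deviations of this sum correlated at 0.17 with those of Clec4d, -0.05 with Clec4e and 0.43 with Clec7a over the 18 libraries, and at 0.09, -0.33 and 0.44 without sham replicate 3 of 4-weeks. For dendritic cell markers (10 of 10 found) the values were 0.65 with Clec4d, 0.44 with Clec4e and 0.53 with Clec7a, and 0.36, -0.14 and 0.23 without that library. With Clec4a and Clec4a1 they were 0.77 and 0.79, and 0.72 and 0.75 without it. For resident macrophage markers the values were 0.54 with Clec4d, 0.24 with Clec4e and 0.38 with Clec7a, and 0.08, -0.68 and -0.05 without that library. With muscle markers these 3 genes gave -0.57, -0.78 and -0.47, and -0.24, -0.68 and -0.15 without it. With monocyte markers (10 of 12 found) they gave 0.23, -0.20 and -0.03, and 0.12, -0.68 and -0.21 without it. With macrophage markers they gave 0.24, -0.24 and 0.25, and 0.52, -0.31 and 0.40 without it. T and NK cell markers (10 of 10 found, 4 tested at 4-weeks and 5 at 12-weeks) gave 0.13, -0.04 and 0.47, and 0.33, 0.05 and 0.70 without it. At 12-weeks 4 of 9 monocyte markers tested had OA against sham log2 fold changes above 0, with a median of -0.16. Of the endothelial markers 0 of 6 did, with a median of -0.25. Of the mast cell and eosinophil markers 0 of 7 did, with a median of -0.37. The part of these cells in the differences between OA and sham was not tested. Sham replicate 3 of 12-weeks also differed from its group, with the highest fibroblast sum (89946), the highest endothelial sum (47886) and the lowest macrophage sum (118281). Each library holds RNA of all cells in the sort, so fewer cells of a type and less RNA per cell cannot be told apart.

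Clec4d and Clec4e, which pair with Fcer1g, were higher in OA at 12-weeks, and so were Clec7a and Clec2dl1. Clec4d (ENSRNOG00000010181), a receptor for microbial glycolipid and partner of Clec4e, had 2783, 3028, 2633 and 3416 normalized reads in the 4 OA libraries and 1914, 2053, 1339 and 1848 in the 4 sham libraries. Each OA value exceeded each sham value, and the log2 fold change was 0.74 (SE 0.13), a 1.67-fold higher level. Leaving out 1 library at a time gave 0.61 to 0.81. At 4-weeks Clec4d had 2741, 3570.1, 2848, 2591 and 2722 normalized reads in OA and 3356, 2321, 1126, 2039 and 2784 in sham. The groups overlapped, since sham replicate 1 exceeded 4 of the 5 OA libraries, and the log2 fold change of 0.40 (SE 0.23) was 0.16 without sham replicate 3.

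Clec4e (ENSRNOG00000061394), or Mincle, senses mycobacterial glycolipid and products of dying cells. At 12-weeks its levels were 1977, 1469, 1518 and 1377 normalized reads in OA and 1063, 915, 1336 and 1006 in sham. The groups did not overlap, with OA replicate 4 just above sham replicate 3, and the log2 fold change was 0.55 (SE 0.13). At 4-weeks the OA libraries had 1328, 2059.9, 1012, 1364 and 1446 normalized reads and the sham libraries 2388, 1515, 508, 1388 and 1700.3. Here both the lowest and the highest values were in sham. The log2 fold change at 4-weeks was 0.07 (SE 0.33) with all libraries and -0.28 without sham replicate 3, so that 1 library set its direction.

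Clec7a (ENSRNOG00000054251), the Dectin-1 receptor for fungal beta-glucan, was measured at 2248, 2919, 2412 and 3013 normalized reads in OA at 12-weeks. The sham libraries had 2117, 1180.0, 1608 and 1936. Here too the lowest OA value exceeded the highest sham value, with a log2 fold change of 0.65 (SE 0.17) that ranged from 0.49 to 0.77 as single libraries were left out. At 4-weeks OA had 2426, 2385, 2715, 2463 and 2013 normalized reads, and sham had 3389, 1629.5, 966, 1538 and 1861. All OA libraries lay above 4 of the 5 sham libraries and below sham replicate 1. The log2 fold change was 0.47 (SE 0.25), and 0.26 without sham replicate 3.

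Clec2dl1 (ENSRNOG00000007866) belongs to the Clec2d group, whose best known members are ligands of NKR-P1 receptors on natural killer cells. It had few reads, 22 to 211 per library, so counting error weighs more in its values than in those of the other genes. At 12-weeks OA libraries had 127, 85.8, 189.8 and 146 normalized reads and sham libraries 49.1, 40.4, 81.4 and 59.8. The groups did not overlap, and the log2 fold change of 1.23 (SE 0.26), or 2.34-fold, was the largest of the 9 genes at this time. At 4-weeks the OA values were 104, 201, 44.0, 107 and 137 normalized reads and the sham values 50.6, 55.3, 51.1, 110.2 and 66.3. The lowest value of all was in OA replicate 3, the groups overlapped, and the log2 fold change was 0.73 (SE 0.34), or 0.65 without sham replicate 3.

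The inhibitory receptor Clec4a (ENSRNOG00000010045) and its relatives did not separate the groups. Clec4a had 778, 868, 715 and 683 normalized reads in OA and 778, 977, 438 and 942 in sham at 12-weeks, for a log2 fold change of 0.02 (SE 0.22) that was -0.24 without sham replicate 3. At 4-weeks its values ran from 471 to 707 in OA and from 459.6 to 726 in sham, and the log2 fold change was 0.00 (SE 0.15), or -0.09 without sham replicate 3. Clec4a1 (ENSRNOG00000042139) had 2292 to 2689 normalized reads in OA and 1648 to 3053 in sham at 12-weeks. Its log2 fold changes were -0.01 (SE 0.17) at 12-weeks and 0.07 (SE 0.09) at 4-weeks, and -0.21 and 0.02 without sham replicate 3 of each week. Clec4a3 (ENSRNOG00000010018) had log2 fold changes of 0.02 (SE 0.16) at 12-weeks and 0.15 (SE 0.11) at 4-weeks, with 4 of 5 OA libraries above every sham library at 4-weeks. Leaving out sham replicate 3 of each week gave -0.13 and 0.07.

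Clec4a2 (ENSRNOG00000030012) varied most between libraries of a group at 12-weeks, with an SD of 0.69 on the log2 scale. It had 141, 158, 109 and 234 normalized reads in OA and 106, 279, 70.0 and 91.9 in sham. Sham replicate 2 was the highest of all, and the log2 fold change of 0.39 (SE 0.38) became 0.81 without it. The value without sham replicate 3 was 0.15. At 4-weeks the log2 fold change was 0.28 (SE 0.24), with OA from 139.9 to 289 and sham from 118 to 274 normalized reads, and 0.13 without sham replicate 3. Clec12a (ENSRNOG00000054860), an inhibitory receptor for uric acid crystals, had 468, 535, 376 and 456 normalized reads in OA and 425, 438, 371 and 432 in sham at 12-weeks, with 3 of 4 OA libraries above every sham library and a log2 fold change of 0.13 (SE 0.11), or 0.08 without sham replicate 3. Its 4-week log2 fold change of 0.25 (SE 0.23) was 0.03 without sham replicate 3.

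**Figure D1:**
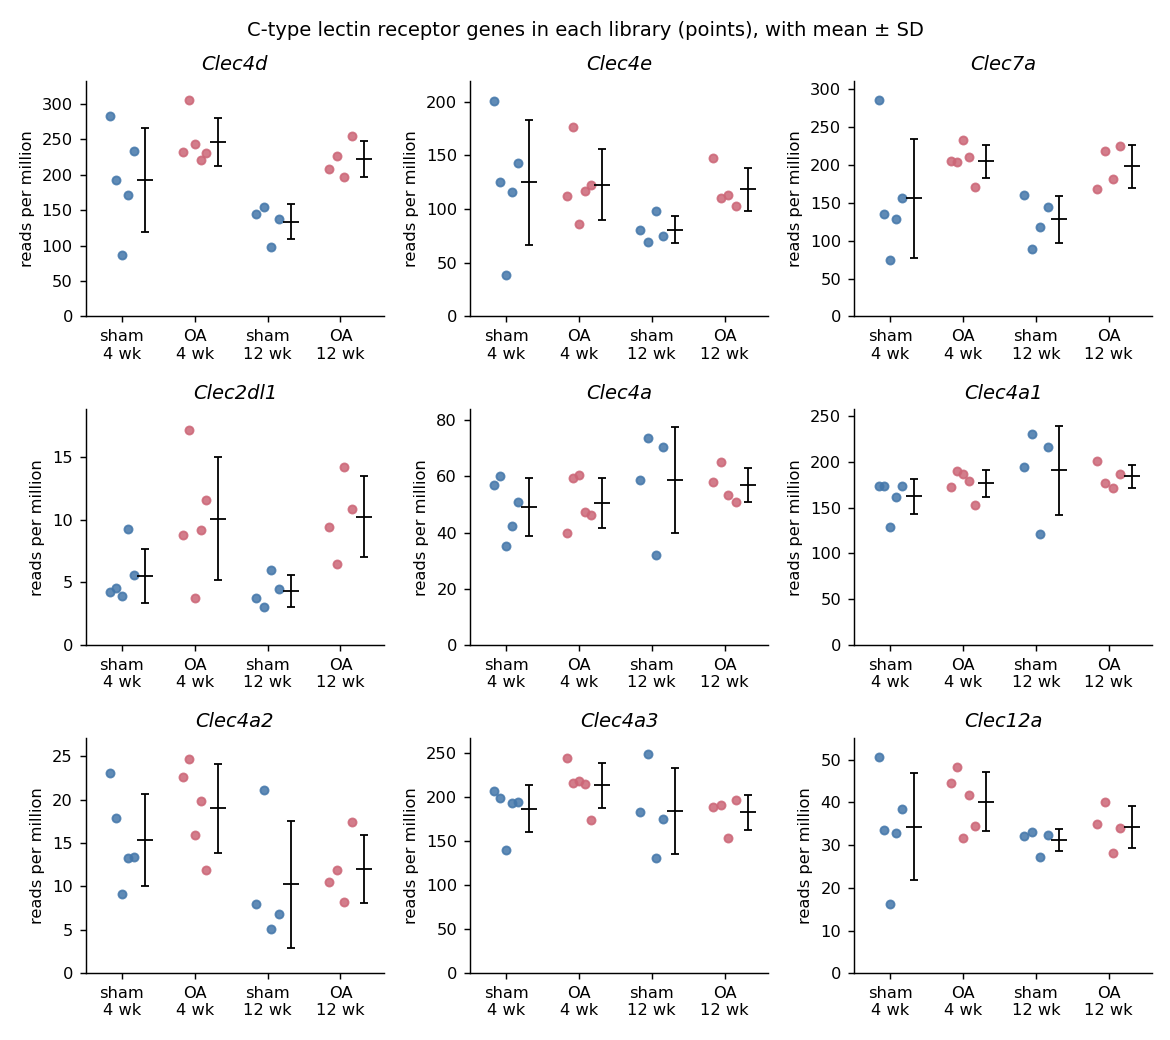
CPM, the reads scaled to a common library size (vertical axes, from 0), of the 9 receptor genes in each of the 18 libraries, by surgery and week. Points are libraries and bars the mean ± SD, and the 4 OA points lie above the 4 sham points at 12-weeks for Clec4d, Clec4e, Clec7a and Clec2dl1.

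Across the members, 9 of 9 genes had log2 fold changes above 0 at 4-weeks (57.1% of 14861 genes tested did) and 8 of 9 at 12-weeks (47.5% of 14666). The median over the 9 was 0.25 against 0.03 over all genes at 4-weeks, and 0.39 against -0.01 at 12-weeks. Without sham replicate 3 of 4-weeks 7 of 9 were above 0, with a median of 0.07 against 0.01 over all genes. Without sham replicate 3 of 12-weeks 6 of 9 were above 0, with a median of 0.15 against -0.02. At 12-weeks all OA libraries exceeded all sham libraries for 4 of 9 genes, as for 2.85% of all genes tested, and the reverse held for 0 of 9, as for 3.44% of all. At 4-weeks the counts were 0 of 9 in both directions, beside 1.18% and 0.693% of all genes. The limma test called 0 genes of all those tested at either time (0.00% called), though 1177 genes at 4-weeks and 1814 at 12-weeks had an unadjusted p under 0.05, and edgeR called 0 as well, with 1202 and 1833. DESeq2 called 31 genes at 4-weeks (0.203% of 15258), none of them a member, and 98 at 12-weeks (0.695% of 14101), among them Clec4d, Clec4e, Clec7a and Clec2dl1. Without sham replicate 3 of 12-weeks limma called 81 of 14663 genes tested, with Clec4d, Clec4e and Clec2dl1 among them. The log2 fold changes without this library were 0.61 for Clec4d, 0.66 for Clec4e, 0.64 for Clec7a and 1.40 for Clec2dl1. Since these levels chose the genes, nothing is read from their counts against the whole.

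**Figure D2:**
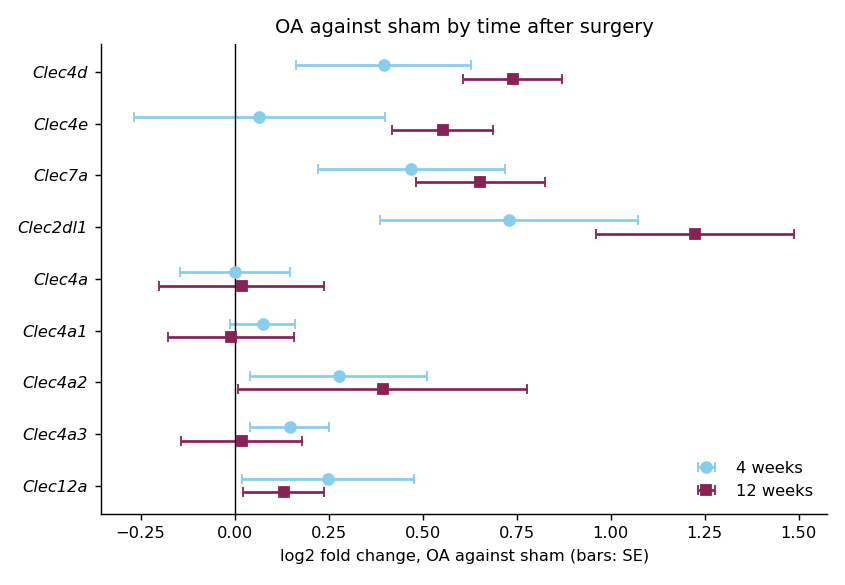
Log2 fold change of OA against sham (horizontal axis, bars are SE) for the 9 genes at 4-weeks (circles) and 12-weeks (squares). At 12-weeks Clec2dl1 (1.23), Clec4d (0.74), Clec7a (0.65) and Clec4e (0.55) lie away from 0, while Clec4a, Clec4a1 and Clec4a3 lie within 0.02 of it.

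Ratios of reads within a library, which no scaling between libraries can alter, separated OA from sham at 12-weeks for Clec4d per Clec4a1. Reads of Clec4d per read of Clec4a1 were 1.03, 1.28, 1.15 and 1.36 in OA and 0.744, 0.673, 0.812 and 0.638 in sham. The groups did not overlap, but Clec4d was picked with its OA and sham levels in view, so nothing is read from this. At 4-weeks the ratio was 1.23 to 1.61 in OA and 0.671 to 1.62 in sham, where replicates 1 and 3 gave the highest and the lowest value. The ratio of Clec7a to Clec4a1 overlapped at 12-weeks, at 1.08 ± 0.183 (SD) in the 4 OA libraries and 0.713 ± 0.251 (SD) in the 4 sham libraries. That of Clec4e to Clec4a1 also overlapped at 12-weeks, at 0.549 to 0.735 in OA and 0.300 to 0.810 in sham. Reads of Clec4d per read of its neighbour Clec4e overlapped at both times, at 1.92 ± 0.459 (SD) in OA libraries of 12-weeks and 1.72 ± 0.519 (SD) in their sham controls.

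**Figure D3:**
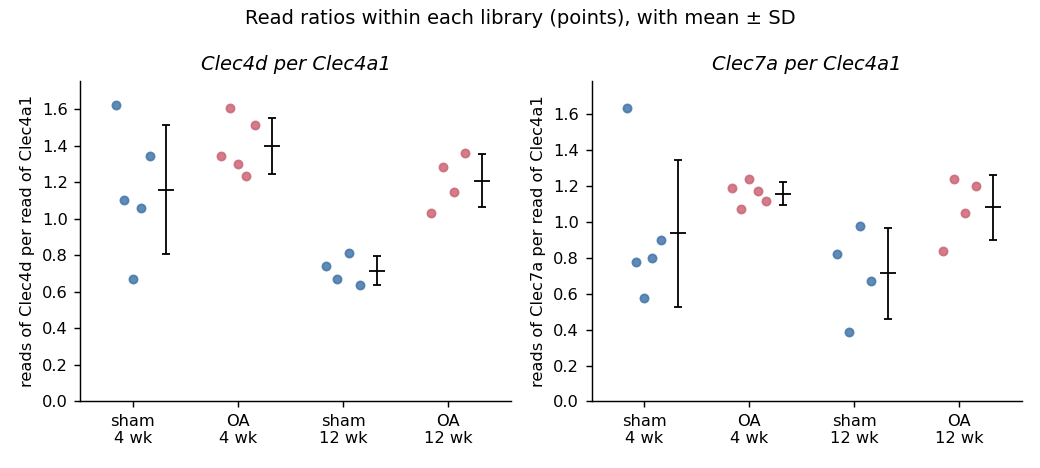
Reads of Clec4d (left) and Clec7a (right) per read of Clec4a1 in each library, with mean ± SD per group. At 12-weeks the Clec4d ratio was 1.03 to 1.36 in OA and 0.638 to 0.812 in sham, while the Clec7a ratio overlapped.

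Mean levels over the 4 groups, in CPM ± SD, ran in different orders for different genes. Clec4d was at 247 ± 33.9 in OA at 4-weeks, 222 ± 25.3 in OA at 12-weeks, 193 ± 73.2 in sham at 4-weeks and 134 ± 24.6 in sham at 12-weeks. Clec7a followed the same order, from 204 ± 22.1 to 128 ± 31.2. Clec4e was alike in sham at 4-weeks (125 ± 58.1), OA at 4-weeks (123 ± 32.9) and OA at 12-weeks (119 ± 20.0), and stood at 80.7 ± 12.6 in sham at 12-weeks. Clec2dl1 was at 10.2 ± 3.23 and 10.1 ± 4.89 in OA at 12- and 4-weeks, and at 5.51 ± 2.17 and 4.30 ± 1.27 in sham at 4- and 12-weeks. The order of Clec4a was reversed in time, from 58.8 ± 18.8 in sham at 12-weeks to 49.2 ± 10.3 in sham at 4-weeks. Neighbours in these orders overlapped in their values, except OA against sham at 12-weeks for Clec4e.

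Levels at the 2 times were compared on log2 CPM in 1 limma fit over all 4 groups. Week cannot be told apart from the number of rats per pool, the age at harvest or any difference between runs. These contrasts use the same libraries as the OA against sham values. In sham, 12-weeks against 4-weeks, limma called 0 of 9 members (1.68% of 14732 genes), and so did edgeR (1.35% of genes) and DESeq2 (3.20%). The lowest values were those of Clec4a2 at -0.72 (SE 0.34, adjusted p = 0.240), Clec4e at -0.46 (SE 0.31, adjusted p = 0.415) and Clec4d at -0.44 (SE 0.23, adjusted p = 0.296). Clec4a and Clec4a1 had values of 0.21 (SE 0.20, adjusted p = 0.574) and 0.20 (SE 0.14, adjusted p = 0.448). Without sham replicate 3 of 4-weeks, Clec4d fell by 0.71 and Clec4e by 0.84. There limma called both, among 265 genes in all, beside 247 genes (1.68% of 14732) with all libraries. The sham levels at 12-weeks were in view when these genes were picked, so nothing is read from these calls. All adjusted p-values here are from limma with Benjamini-Hochberg adjustment over all genes tested.

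In OA, 12-weeks against 4-weeks, 0 of 9 members were called by limma (0.930% of genes), edgeR (1.07%) or DESeq2 (1.87%). Clec4a2 had the lowest value again, -0.66 (SE 0.34, limma adjusted p = 0.413), and the other 8 lay between -0.22 and 0.18. The difference of OA against sham between the weeks was 0.44 (SE 0.44) for Clec4e, 0.44 (SE 0.48) for Clec2dl1, 0.29 (SE 0.33) for Clec4d and 0.13 (SE 0.36) for Clec7a. Each was smaller than its SE, and the fold changes of the weeks were not shown to differ. Across all genes limma called 0 for this difference (578 with an unadjusted p under 0.05), edgeR 0 (513) and DESeq2 0 (1608).

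How the genes varied together was described by the correlation of their deviations from the group mean, in log2 CPM over 18 libraries. The points share library depth and cell make-up, and no p is given. The 36 pairs ranged from -0.35 to 0.89 with a median of 0.54, and several rested on sham replicate 3 of 4-weeks. Clec4d with Clec4e went from 0.76 to 0.28 without it, and Clec4d with Clec12a from 0.89 to 0.70. Within the Clec4a group it mattered less: Clec4a2 with Clec4a3 gave 0.89, and 0.88 without it, and Clec4a with Clec4a1 gave 0.88 and 0.86. Clec2dl1 ran against all 4 of the Clec4a genes, at -0.18 to -0.35 with all libraries and -0.27 to -0.49 without that library.

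**Figure D4:**
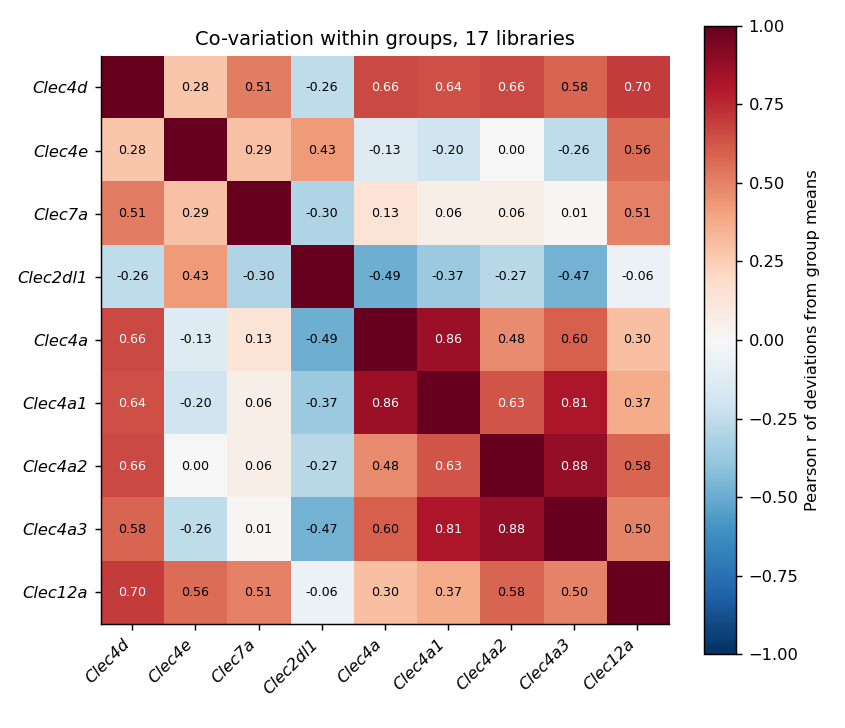
Pearson correlations between the 9 genes of deviations from group means in log2 CPM, over 17 libraries (sham replicate 3 of 4-weeks left out), on a scale from -1 (blue) to 1 (red). Clec4a, Clec4a1, Clec4a2 and Clec4a3 form a block from 0.48 to 0.88, and Clec2dl1 is negative with all 4.

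By the same measure over 14732 genes, the genes most like each member differed between members. Clec7a was most like Cxcl16, a chemokine and scavenger receptor (0.94), Olr1, a neighbouring lectin-like receptor for oxidised lipoprotein (0.93), and Rhbdf2 (0.93). Clec4a1 was most like Cd22 (0.94), Ms4a6a (0.92) and the phosphatase Ptpn6 (0.90). Clec4a was most like Ms4a6a (0.90), Clec4a1 and AABR07006311.1. The nearest genes to Clec4a2 were Ccnb1 (0.95), Iqgap3 (0.93) and Cdca3 (0.92), which act in cell division, and Clec4a3 was nearest to Tacc3 (0.96), also of the mitotic spindle, Glrx and Amdhd2. Those of Clec2dl1 were the matrix protein Tnc (0.91), the guidance factor Sema3d (0.87) and Ngef (0.85). Clec12a was nearest to Rgs1 (0.97), Gsap and Prpf38b, Clec4d to Mboat1 (0.96), Dpy19l1 and Mtpn, and Clec4e to Gfm1 (0.95), Odf2 and Tapt1. These values use all libraries. Without sham replicate 3 of 4-weeks, Clec4e with Gfm1 gave 0.83, Clec4d with Mboat1 0.89 and Clec12a with Rgs1 0.93. Clec4a2 with Ccnb1 gave 0.94 and Clec2dl1 with Tnc 0.90.

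Clec2dl1 moved with markers of fibroblasts. Over the 18 libraries the deviations of its level correlated at 0.71 with those of the summed fibroblast markers, and at 0.69 without sham replicate 3 of 4-weeks. For the other 8 genes this value lay between -0.30 and 0.27, and between -0.52 and 0.14 without that library. At 12-weeks the 3 sham libraries other than replicate 3 had 4426 to 4999 CPM of fibroblast markers and 3.04 to 4.46 of Clec2dl1. Sham replicate 3 had 6617 and 5.99. The 4 OA libraries had 8349 and 9.45, 6649 and 6.43, 7219 and 14.2, and 6472 and 10.9. OA replicate 4 thus had fewer fibroblast marker reads than sham replicate 3 and more Clec2dl1, while OA replicate 2 was near that sham library in both. The part of fibroblasts in the Clec2dl1 difference was not tested. Clec4a1 and Clec4a3 ran against the summed endothelial markers, at -0.70 and -0.68, and at -0.72 for both without that library.

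**Figure D5:**
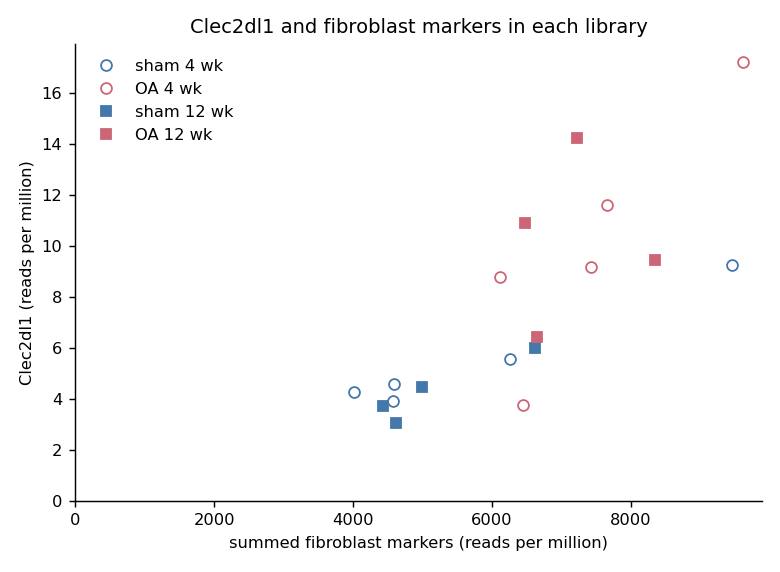
Clec2dl1 (vertical axis) against the sum of 9 fibroblast markers (horizontal axis), both in CPM, in each of the 18 libraries. Deviations from the group means correlated at 0.71, with single libraries well apart from the trend, such as OA replicate 3 of 4-weeks at 6444 and 3.76 and OA replicate 3 of 12-weeks at 7219 and 14.2.

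Genes that carry the signal of these receptors were taken as lists. Of 24 adaptors and kinases 23 were tested, and limma called 0 in either direction in OA against sham at both weeks. It called 0 genes of all those tested in this contrast, so the 0 is no statement about the list. The shared adaptor Fcer1g had OA against sham log2 fold changes of 0.14 (SE 0.10) at 4-weeks and 0.06 (SE 0.12) at 12-weeks. Tyrobp had 0.08 (SE 0.09) and 0.20 (SE 0.13), Syk 0.11 (SE 0.14) and 0.04 (SE 0.16), and Card9 0.18 (SE 0.14) and 0.07 (SE 0.15). The phosphatases Ptpn6 and Inpp5d, which inhibitory receptors recruit, had 0.14 (SE 0.14) and 0.09 (SE 0.10) at 12-weeks. DESeq2 called 1 of 23 genes of the list at 12-weeks, beside 0.695% of all genes. This was Blnk, an adaptor downstream of Syk (DESeq2 log2 fold change 0.50, SE 0.14, adjusted p = 0.0475), with limma at 0.52 (adjusted p = 0.275). The list's median was 0.04 at 12-weeks against -0.01 over all genes. Between the weeks limma called none of the list, beside 1.68% of all genes in sham and 0.930% in OA. DESeq2 called 1 of 23 in sham, beside 3.20% of all genes, and 0 of 23 in OA, beside 1.87%. The gene called was Hcst, the adaptor DAP10, higher at 12-weeks in sham (DESeq2 0.62, SE 0.20, adjusted p = 0.0378), with limma at 0.64 (adjusted p = 0.0617).

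Of the 14 transcription factors downstream and the 12 or 13 receptor-induced cytokines and enzymes that were tested, limma called 0 in OA against sham, as over all genes. Between the weeks limma called 3 of them in sham and 1 in OA, beside 1.68% and 0.930% of all genes. In sham, Ccl2, a monocyte chemokine, was higher at 12-weeks by 0.92 (SE 0.16, limma adjusted p = 0.00821), in 26 of 26 alternatives. The anti-inflammatory cytokine Il10 was higher by 1.22 (SE 0.29, adjusted p = 0.0334, called in 21 of 26) and Rel, a subunit of NF-kB, by 0.78 (SE 0.18, adjusted p = 0.0320, called in 19 of 26). In OA, Ccl2 was higher at 12-weeks by 0.75 (SE 0.16, adjusted p = 0.0322, called in 17 of 26 and not with a replicate block). DESeq2 called 5 genes of these lists in sham and 4 in OA, beside 3.20% and 1.87% of all genes. Those it called and limma did not were the cytokine Il6 in sham (1.18, SE 0.36, adjusted p = 0.0311) and in OA (1.18, SE 0.36, adjusted p = 0.0400), Egr3 in sham (0.61, SE 0.18, adjusted p = 0.0287), Egr2 in OA (0.57, SE 0.15, adjusted p = 0.0148) and Rel in OA (0.56, SE 0.16, adjusted p = 0.0220). The limma values of Il6 were 1.15 (adjusted p = 0.0561) in sham and 1.12 (adjusted p = 0.0998) in OA. Neither tool called a gene of these lists lower.

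Among other C-type lectin receptors, 33 of the 37 listed were found and 24 tested, and limma called 0 in OA against sham at both weeks, again as over all genes. Their median log2 fold changes were 0.02 at 4-weeks and -0.06 at 12-weeks. DESeq2 called 1 of 23 in OA against sham at 12-weeks, beside 0.695% of all genes. In sham between the weeks it called 1 higher and 1 lower of 30 (3.20% of all genes), and in OA 1 of 24 (1.87%). There limma called 1 of 24 in sham (1.68%) and 0 of 24 in OA (0.930%). Clec5a, which signals through Tyrobp, had 187 to 333 normalized reads in OA and 139 to 203 in sham at 12-weeks, and a log2 fold change of 0.62 (SE 0.18, limma adjusted p = 0.287). In sham it was lower at 12-weeks by DESeq2 (-0.99, SE 0.24, adjusted p = 0.00394), and limma gave -0.86 (adjusted p = 0.0681). Mrc2, a collagen receptor, was called by DESeq2 at 12-weeks (0.69, SE 0.16, adjusted p = 0.00648), with limma at 0.71 (adjusted p = 0.265), and in OA between the weeks (0.70, SE 0.16, adjusted p = 0.00256). Klrb1b, of the NKR-P1 family, was higher in sham at 12-weeks than at 4-weeks by 0.61 (SE 0.16, limma adjusted p = 0.0450, called in 10 of 26 alternatives).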

How the data were processed

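RNA from CD11b/c-sorted synovial cells was sequenced after removal of ribosomal RNA with a stranded kit. The authors trimmed reads with fastp 0.20.0, aligned them to Rnor_6.0 with STAR 2.7.6a, removed duplicates, counted them per gene with featureCounts 2.0.0 and divided by DESeq2 1.24.0 size factors within each time point (tools and versions per the submitters' processing notes). Whether the counting used strand is not given in the sources used here. The deposited values are the normalized reads (a signal). The deposited tables also hold the authors' mean, log2 fold changes, standard errors, a Wald score, p-values and adjusted p-values, which were not used. Every value was a whole multiple of 1 read within 0.01 (100%), so reads were recovered from the value of 1 read per library. A count of 3 reads, the floor, is 2.06 to 6.96 normalized reads. Counting error is the only error such a floor covers.

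OA was compared with sham within each week by limma 3.58.1 (R 4.3.3) with a trend, on log2(normalized reads + 1), for genes with a mean of at least 10, which gives fold changes that understate those of low genes. Weeks were compared by limma on log2 CPM of recovered reads (TMM, prior count 2) over all groups. Genes were called at a Benjamini-Hochberg adjusted p-value under 0.05 and a log2 difference of at least 0.5. The alternatives were edgeR 4.0.16 and DESeq2 1.42.0 on the recovered reads, other pseudocounts, prior counts, filters and scalings, no fold-change minimum, a replicate block and leaving out each library. Tests were tested on simulated data. Replicates differed by more than sampling noise (chi-square per degree of freedom 5.84 to 38.8 over 32 pairs). No label says which pools shared a surgery or sort day, so p-values measure the spread between these pools. For 12-weeks the labels give 4 libraries per group where the study's methods state 5. The members and all gene lists were chosen with earlier results of these data known. Named are the members, Fcer1g, Tyrobp, Syk, Card9, Ptpn6, Inpp5d and Clec5a, every gene of a pathway or family list that limma called in a contrast, and the 3 genes whose deviations correlate best with each member. Blnk, Mrc2, Hcst, Il6, Egr2 and Egr3, called by DESeq2 alone, were named after their values were seen. Summaries and motif searches used Python 3.11.15 with pandas 2.3.3.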

Additional observations from a re-analysis of the deposited data

Results flagged for a closer look

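Of 36 sets of values (9 genes in 4 groups), 3 held a library far from the others of its group by Dixon's criterion, where chance gives about 1 in 20. Clec4d was highest in OA replicate 2 of 4-weeks at 3570.1 normalized reads, with the other 4 OA libraries at 2591 to 2848. Clec2dl1 was highest in sham replicate 4 of 4-weeks at 110.2, with the others at 50.6 to 66.3, and this library also had the most fibroblast marker reads among sham libraries, 9451 CPM. Clec4a3 was lowest in sham replicate 3 of 4-weeks at 1827, with the others at 2303 to 2467, and this library had the fewest reads, 4662344.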

How the results depend on the processing

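The OA against sham log2 fold changes of the 9 genes moved by less than the SD between replicates in all 162 alternative values at 4-weeks and all 144 at 12-weeks. This margin is wide, such as 0.69 for Clec4a2 at 12-weeks, so it does not show that sizes were stable. The filters and the replicate block cannot alter these fold changes, so their values are no check. At 4-weeks, leaving out sham replicate 3 took Clec4d from 0.40 to 0.16 and Clec4e from 0.07 to -0.28. Near-zero values changed sign. Genes called at 4-weeks, 0 with all settings of pseudocount and filter, were 1 with TMM scaling, 31 by DESeq2, 1 with a replicate block and 0 to 1 with a library left out. At 12-weeks DESeq2 called 98 genes (0.695% of 14101), 4 of them members. Leaving out a library gave 0 to 81 genes and 0 to 3 members, the highest without sham replicate 3 (81 of 14663 genes tested). In sham between the weeks, 247 genes (1.68% of 14732) became 590 by DESeq2 (3.20% of 18447) and 89 to 296 with a library left out. Members called were 0 to 2, both without sham replicate 3 of 4-weeks, where 265 genes were called. In OA between the weeks, 137 became 269 by DESeq2, 53 with every gene with a read and 52 to 230 with a library left out. The cause was not tested.

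Some values near 0 changed sign. With a library left out, sham between the weeks ran from -0.42 to 0.068 for Clec7a, -0.30 to 0.11 for Clec12a and -0.21 to 0.088 for Clec4a3. OA between the weeks ran from -0.19 to 0.35 for Clec2dl1, -0.14 to 0.11 for Clec4e (0.024 with a replicate block) and -0.11 to 0.025 for Clec7a. The difference between weeks ran from -0.33 to 0.078 for Clec12a, -0.27 to 0.12 for Clec4a (0.021 with DESeq2 size factors), -0.16 to 0.50 for Clec4a2 (-0.0076 by edgeR, -0.028 by DESeq2) and -0.12 to 0.37 for Clec7a.

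Same-numbered OA and sham libraries showed little shared deviation (r from -0.05 to 0.06 at 4-weeks and -0.04 to 0.31 at 12-weeks, with 0 of 5 and 1 of 4 closest to their own number). So few pairs cannot exclude a shared surgery or sort day, and no label gives one. A replicate block called 1 gene at 4-weeks, 0 at 12-weeks, 292 in sham and 135 in OA between the weeks, and 0 members. Depth limits Clec2dl1 most, with 22 to 211 reads per library.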
